A study of Mus musculus with 2 samples.

Results

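Apobec3 is the only mouse member of the APOBEC3 group of cytidine deaminases, which act against retroviruses, and it was 1 of the 31053 genes listed in both libraries. It was matched by its symbol (ENSMUSG00000009585) and had been chosen because an earlier look at these data showed it to be much lower in the knockout library, so its own difference between the libraries is given as a description. The cells were splenic NK cells of C57BL/6 mice, sorted by the study for CD27 and CD11b. Both groups carry floxed alleles of Ptger3, the gene of the prostaglandin E2 receptor EP3. The floxed control (EP3F/F) has no Cre, and the NK knockout (NKp46CreEP3F/F) carries Cre driven from the gene of the NK receptor NKp46, which is active in NK cells and some related innate lymphoid cells. Each group was a pool of 2 mice made into 1 droplet library, and neither treatment, age nor sex is given. There are therefore no replicates and no test. Every interval below is a 95% interval for counting error alone, and a difference between these libraries cannot be told apart from one between the pools of mice or the preparations.

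APOBEC3 proteins are packaged into new retroviral particles and, in the next cell, deaminate cytosine to uracil in the viral cDNA or slow reverse transcription. The mouse protein limits murine leukaemia and mammary tumour viruses, and its gene is known to differ between inbred strains in its level and in the splicing of exon 5. Many restriction factors are induced by interferon through transcription factors that bind a promoter element with paired GAAA blocks.

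In the GENCODE annotation of GRCm38, Apobec3 spans chr15:79891659-79915906 on the plus strand and has 20 transcripts, 11 of them protein coding. A transcript of 9 exons and one of 8 exons, both protein coding, differ by exon 5, chr15:79899020-79899118, which is 99 bases long, and share their last exon at chr15:79907304-79908429. The libraries hold tags from the 3' end of transcripts, so the levels below do not tell these forms apart. They are sums over all transcripts counted for the gene. The promoter that RefSeq gives for Apobec3 in GRCm38.p6, chr15:79892158-79892407 on the plus strand, is printed 5′ to 3′ over the 250 bases before the RefSeq start because the element that binds the interferon-activated complex can be looked for in it. This RefSeq start lies downstream of the GENCODE gene start given above, so the printed bases fall within the GENCODE gene. The element searched was GAAA and a further GAAA with 2 bases of any kind between them, and capitals mark its match or that of its reverse complement.
Apobec3: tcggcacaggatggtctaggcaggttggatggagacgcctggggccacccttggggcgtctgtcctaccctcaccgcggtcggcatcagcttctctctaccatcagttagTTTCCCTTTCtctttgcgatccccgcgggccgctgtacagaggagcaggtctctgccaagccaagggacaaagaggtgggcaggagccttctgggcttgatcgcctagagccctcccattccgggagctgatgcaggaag
The match lies on the minus strand and begins at position -140 relative to this RefSeq start. The second RefSeq start of the gene, with the promoter chr15:79894773-79895022, has no match. For comparison, 30-base windows around the first match are given for the interferon-induced genes Ifit1, Isg15, Oas3 and Bst2, on the strand of each gene, at chr19:34640775-34640804 (plus), chr4:156200877-156200906 (minus), chr5:120777715-120777744 (minus) and chr8:71537583-71537612 (minus). Capitals in these windows mark the first match only. Over 300 bases Ifit1 has 2 matches, Isg15 3, Oas3 1 and Bst2 2. In Isg15 and Bst2 lower-case bases after the capitals complete a further match that overlaps the first.
Ifit1: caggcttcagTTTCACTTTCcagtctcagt
Isg15: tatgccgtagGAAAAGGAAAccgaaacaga
Oas3: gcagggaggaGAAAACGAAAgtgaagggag
Bst2: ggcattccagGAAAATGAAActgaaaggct
Searched on both strands of windows of 300 bases (250 before and 50 after each start), the motif was found in 3.99% of 27025 genes, in 7 of 13 genes of the interferon core described below and in 23 of the 44 interferon-induced genes that have a window in the table. Apobec3 shares it with them, and a match of letters is not a shown binding site.

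The deposited values were counts of unique molecular identifiers (UMIs), with 11785 barcodes and 69853026 UMIs in the control library, 10615 barcodes and 42795121 UMIs in the knockout library, and 1.63-fold more UMIs in the former. A control barcode carried a median of 5641 UMIs, a knockout barcode 3745, and for that reason shares of cells are compared at one depth. The libraries had 33 barcode sequences in common. Ptger3, the targeted gene, was counted 12 times in NK cells of the control (0.202 counts per 1000000 UMIs, CPM) and 0 times in those of the knockout, where 3 counts would be 0.0817 CPM. NK cells were gated on at least 3 UMIs over 8 NK markers with few of other lineages, and they numbered 9621 and 8809. Over the summed NK cells, the T cell markers came to 19.1 and 33.9 CPM and the macrophage markers to 4.98 and 12.0 CPM in control and knockout, against 7959 and 7449 CPM for the NK markers.

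In NK cells, Apobec3 was lower by more than a factor of 3 in the knockout library. The control cells held 17887 Apobec3 UMIs, 301 CPM (exact Poisson interval 297 to 306). The knockout cells held 3114, 84.8 CPM (81.8 to 87.8). The control level was thus 3.55-fold the knockout level, a log2 ratio of knockout over control of -1.83 (exact conditional interval -1.88 to -1.77). Of 7332 genes measured at a mean of at least 10 CPM, Apobec3 had the 12th lowest ratio, where the median was -0.07 and the quartiles were -0.38 and 0.19. By a size of 0.32 on the log2 scale, 29.3% of measured genes were lower and 14.7% higher. By a size of 0.58 these were 13.9% and 4.09%, so a lower value as such was common. Apobec3 was chosen for its large difference, so its low rank follows from that choice. The 300 genes nearest to Apobec3 in summed exon length (9454 bases) had a lower median of -0.35, and relative to them the Apobec3 ratio was -1.48. In NK cells of 3000 to 5000 UMIs only, where the libraries have like depths, it was -1.94.

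**Figure D1:**
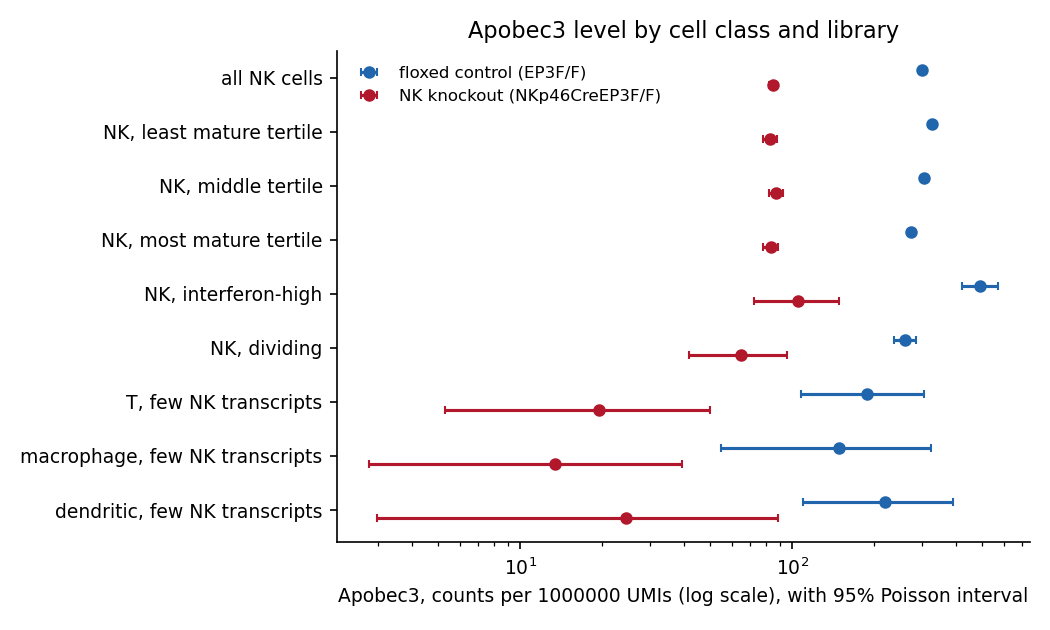
Apobec3 level in CPM on a log axis, by cell class (rows) and library (colours), with 95% Poisson intervals for counting error. The knockout lies below the control in each class shown, at 84.8 against 301 CPM in all NK cells, and the small classes at the bottom have wide intervals.

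The same difference was seen per cell. When every NK cell was reduced to 2000 UMIs, 44.7% of 9468 control cells (exact binomial interval 43.7 to 45.8) and 15.5% of 8611 knockout cells (14.7 to 16.3) held an Apobec3 UMI. This left out 153 and 198 shallower cells, and without thinning the shares were 79.0% and 28.5%. In the control, 31.7% of thinned cells held 1 UMI, 10.1% held 2 and 2.86% held 3 or more, around a mean of 0.612. In the knockout, 14.1% held 1, 1.33% held 2 and 0.107% held 3 or more, around a mean of 0.171. A single Poisson rate for all cells of a library would give 54.2% of control and 84.3% of knockout cells without a UMI, against 55.3% and 84.5% observed. The variance over the mean was 1.06 in the control and 1.03 in the knockout, so neither library showed separate fractions of cells with and without Apobec3 at this depth. At so few UMIs per cell, fractions that differ modestly in level would not be visible, and the mice of a pool are not labelled.

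**Figure D2:**
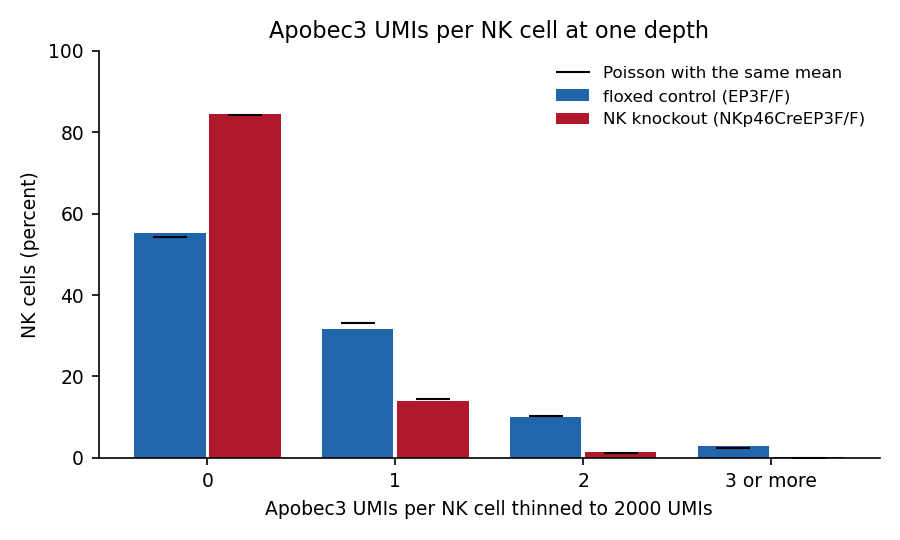
Percent of NK cells with 0, 1, 2 and 3 or more Apobec3 UMIs after thinning to 2000 UMIs, for each library, with black marks for a Poisson distribution of the same mean. The observed shares lie close to the marks in both libraries, with 55.3% of control and 84.5% of knockout cells at 0.

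NK maturation runs from CD27-bearing cells to cells with CD11b (gene Itgam) and KLRG1, and cells were ranked and split into tertiles within each library by 10 markers of more and 10 of less mature cells. Cells with a Cd27 UMI made up 32.7%, 23.2% and 10.0% of the control cells from the least to the most mature tertile, and 35.8%, 27.5% and 14.2% of the knockout cells. Cells with an Itgam UMI made up 16.7%, 26.96% and 33.7% of control cells and 8.67%, 17.6% and 24.1% of knockout cells. Cd27, Itgam and Klrg1 are among the ranking markers, so these trends describe the tertiles and are no check of them. Apobec3 stood at 325 CPM (318 to 333) in the least mature, 304 (297 to 312) in the middle and 273 (266 to 281) in the most mature tertile of the control, in that order with intervals that do not overlap. The shares of cells at 2000 UMIs were 47.4%, 45.3% and 41.5%. In the knockout, the levels were 83.0 CPM (78.0 to 88.3), 87.3 (82.1 to 92.7) and 83.4 (78.3 to 88.8), with overlapping intervals, and the shares were 14.9%, 16.2% and 15.4%. The log2 ratio of the most over the least mature tertile was -0.25 (-0.31 to -0.20) in the control, below which lay 4.49% of 7313 genes, and 0.01 (-0.12 to 0.13) in the knockout. Whether these slopes differ between the libraries was not tested. The control slope depended on how maturity was read: cells with Itgam or Klrg1 but no Cd27 UMI held 299.5 CPM and cells with Cd27 but neither of the others 300.3 CPM (log2 ratio -0.00, -0.07 to 0.06). The same classes of the knockout held 85.8 and 90.3 CPM (-0.07, -0.24 to 0.09). A tertile is a range of a score, and 175 and 687 control cells and 429 and 450 knockout cells lay within 0.1 of its lower and upper bounds.

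The difference between the libraries was present in every tertile. The tertile bounds lay at scores of 0.15 and 1.32 in the control and of -0.74 and 0.58 in the knockout. Tertiles of the same name therefore do not hold cells of like score. The log2 ratio of knockout over control was -1.97 (-2.07 to -1.88) in the least, -1.80 (-1.90 to -1.71) in the middle and -1.71 (-1.81 to -1.61) in the most mature tertile. Dividing NK cells, with at least 3 UMIs of division genes, held 260 CPM in 177 control cells and 64.7 CPM in 41 knockout cells, so that the control level was 4.01-fold the knockout level.

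The level of Apobec3 was then set against the interferon response of the same cells. The interferon core comprised 18 genes such as Isg15, a ubiquitin-like modifier, Ifit1, which binds viral RNA, and Rsad2, the antiviral enzyme viperin. Its summed level in NK cells was nearly equal at 243 CPM for control cells and 238 CPM for knockout cells (log2 ratio -0.03, -0.07 to 0.00). Its members differed in both directions, as in Isg15 (0.77) and Ifit2 (-0.67). The whole interferon-induced list summed to 4017 CPM in control and 3212 CPM in knockout NK cells (-0.32, -0.33 to -0.31). In the control, Apobec3 stood at 298 CPM (293 to 304) in 6366 cells with no core UMI among 2000, 300.2 (291 to 309) in 2303 cells with 1 and 306 (288 to 324) in 577 cells with 2. It was higher in the cells with more, at 353 CPM (319 to 390) in 168 cells with 3 to 4 core UMIs and 492 (420 to 572) in 54 cells with 5 or more. The share of control cells with an Apobec3 UMI went from 44.4% at 0 core UMIs to 64.6% at 5 or more. In the knockout the corresponding levels were 83.1 CPM (79.6 to 86.7; 6035 cells), 86.1 (79.9 to 92.6; 1977 cells), 99.6 (85.2 to 116; 402 cells), 70.9 (49.7 to 98.2; 125 cells) and 105 (72.6 to 148; 72 cells), with no steady order. The intervals of the classes with 0 and with 5 or more core UMIs did not overlap in the control and overlapped in the knockout, where the latter class held 33 Apobec3 UMIs. Whether the libraries differ in this was not tested.

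**Figure D3:**
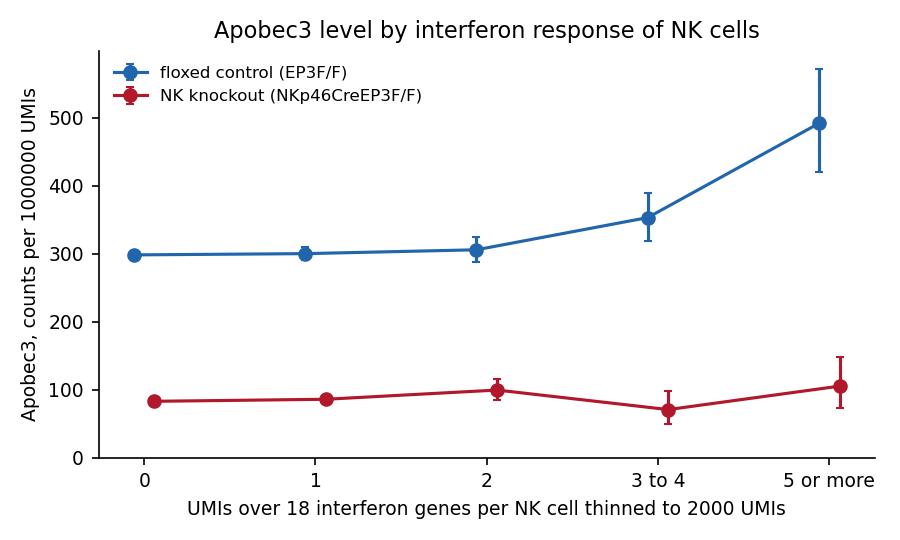
Apobec3 level in CPM (linear axis from 0) in NK cells grouped by their UMIs over 18 interferon core genes at 2000 UMIs per cell, with 95% Poisson intervals. The control is level from 0 to 2 core UMIs, near 300.2 CPM, and reaches 492 CPM at 5 or more, while the knockout stays between 70.9 and 105 CPM.

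Against other interferon-induced genes, this response of Apobec3 was small. The log2 ratio of cells with 5 or more core UMIs over cells with 0 was 0.72 (0.49 to 0.94) for Apobec3 in the control, where 93.6% of 6851 genes were lower. For 30 interferon-induced genes outside the core the median was 2.19, and all but Irf1 (0.56) exceeded Apobec3. In the knockout the Apobec3 ratio was 0.34 (-0.20 to 0.84), with 81.4% of 6644 genes lower, and all 30 genes exceeded it, with a median of 2.34. Eif2ak2, the RNA-activated kinase PKR, was among the most responsive at 3.35 and 3.54, and Samhd1, which depletes the nucleotides used for reverse transcription, gave 2.32 and 2.08. The interferon signalling genes Stat2 (2.08 and 2.24) and Irf9 (1.38 and 1.85) were also well above Apobec3 in control and knockout. Between the libraries, Apobec3 in the interferon-high cells gave 492 and 105 CPM, a log2 ratio of -2.22 (-2.81 to -1.68). The Apobec3 value rests on 167 UMIs in the control and 33 in the knockout. Classing cells by the whole interferon-induced list in place of the core brought the control ratio to 0.14. That list summed to 4017 CPM in control NK cells and the core to 243 CPM, so their classes do not compare directly.

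Across all NK cells, interferon-induced genes were more often lower than higher in the knockout, by much less than Apobec3. Of 57 such genes in the files 36 were measured, and 24 of them were lower (66.7%), 3 higher and 9 between, against 29.3% lower and 14.7% higher over all measured genes. The median log2 ratio was -0.49 against -0.07 over all measured genes. At a size of 0.58, 14 were lower and 1 higher, against 13.9% and 4.09% of all measured genes. The largest differences were in the DNA-sensor family gene Ifi213 (27.9 and 12.9 CPM in control and knockout, log2 ratio -1.12), the ISG15 ligase family gene Herc6 (37.5 and 17.5 CPM, -1.10), Dtx3l, a ubiquitin ligase that works with PARP9 (-0.85), Slfn8 (-0.84), Ddx58, the RNA sensor RIG-I (-0.80), and Ifi203 (-0.79). None of the 36 was as low as Apobec3. Of 14 measured interferon signalling genes, 4 were lower (28.6%), 1 higher and 9 between, with a median of -0.21, and the lower share is near the 29.3% of all measured genes. Among the lower ones were the parts of the interferon-activated complex Irf9 (53.2 and 31.1 CPM, -0.77) and Stat2 (18.6 and 13.0 CPM, -0.52), and Irf2 (-0.64), an antagonist of IRF1. Irf7, a driver of interferon transcription, was higher (0.34), and the receptor subunit gene Ifngr1 (0.31) lay just inside the size limit.

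Other restriction factors did not share the size of the Apobec3 difference. Of 25 in the files 16 were measured, and 7 were lower, 1 higher and 8 between, with a median of -0.22, against 29.3% lower and 14.7% higher over all measured genes. At a size of 0.58, 1 of the 16 was lower, against 13.9% of all measured genes. Setdb1, a histone methyltransferase that silences endogenous retroviruses, had the lowest ratio (19.6 and 11.9 CPM in control and knockout, -0.72), followed by Eif2ak2 (-0.56), the TRIM5-related Trim12c (-0.56), the adenosine deaminase Adar (-0.44) and Trim30a (-0.42). Isg15 was higher in the knockout (11.4 and 19.4 CPM, 0.77). Other cytidine deaminases of the family lay below the limit for measured genes: Apobec1, which edits apolipoprotein B mRNA, reached 7.31 and 9.88 CPM (0.44), Apobec2 gave 4 and 6 UMIs, and Apobec4 gave 0 UMIs in both libraries. Uracil made by deaminases is removed or kept out of DNA by repair genes, and of 8 such genes 5 were measured, 1 lower, 1 higher and 3 between, against 29.3% lower and 14.7% higher over all measured genes. These were the uracil or thymine glycosylase genes Tdg (17.3 and 12.6 CPM, -0.46) and Smug1 (-0.22), Samhd1 (-0.11), the dUTPase gene Dut (0.05) and the break repair scaffold Xrcc1 (12.1 and 15.3 CPM, 0.34). Below the limit, Ung, the main uracil glycosylase, gave 6.06 and 12.3 CPM (log2 ratio 1.01, 0.81 to 1.22).

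**Figure D4:**
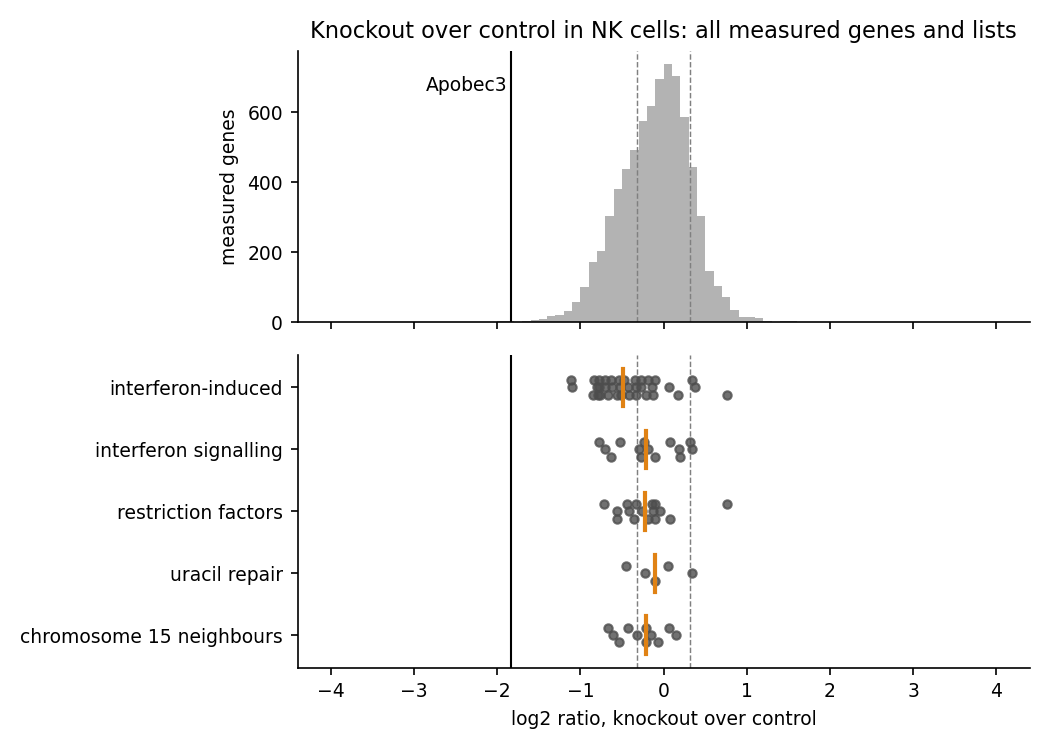
Log2 ratio of knockout over control in NK cells: top, number of measured genes in bins of 0.1. Bottom, each measured gene of 4 lists and of the chromosome 15 neighbourhood (grey points, spread vertically for visibility) with the median (orange). Dashed lines mark 0.32 either way, and the Apobec3 line at -1.83 lies to the left of all listed genes.

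Genes beside Apobec3 on chromosome 15 were looked at for a difference of the whole region. Among the 10 protein-coding genes on each side 11 were measured, of which 5 were lower, 0 higher and 6 between, with a median of -0.22, against 29.3% lower and 14.7% higher over all measured genes. Below the limit for measured genes, Dnal4, upstream of Apobec3, stood at 5.56 and 12.1 CPM in control and knockout (log2 ratio 1.12, 0.91 to 1.33). The measured genes upstream were Cby1 (0.15), Tomm22 (-0.32), Josd1 (-0.22), Gtpbp1 (-0.54) and Sun2 (-0.22). Downstream they were Cbx7 (-0.61), Pdgfb (-0.42), Rpl3 (-0.15), Mief1 (-0.67), Atf4 (-0.07) and Rps19bp1 (0.06). Cbx7, a Polycomb gene on the opposite strand, overlaps the annotated end of Apobec3 by 100 bases and stood at 32.7 and 21.4 CPM in control and knockout. On the same strand, D730005E14Rik overlaps the start by 1462 bases and has no row of its own in these files.

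**Figure D5:**
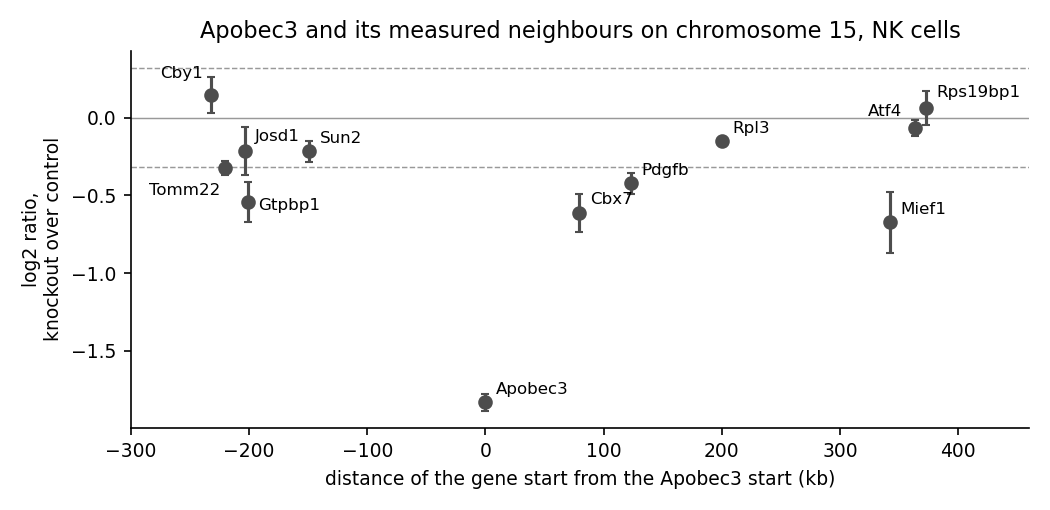
Log2 ratio of knockout over control in NK cells, with 95% intervals for counting error, for Apobec3 and its 11 measured neighbours, by distance of gene starts in kb. Apobec3 at -1.83 stands below its neighbours, which lie between -0.67 and 0.15.

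Some sorted cells were of other types, in which the NKp46 gene is as a rule silent. T cells, macrophages and dendritic cells were gated on their markers and limited to at most 1 UMI over the NK markers. T cell markers came to 3015 CPM in control T cells and 3630 CPM in knockout T cells, and macrophage markers to 22052 and 25479 CPM in macrophages. Class II genes came to 37274 and 44010 CPM in dendritic cells, with no macrophage marker UMI there. These are the genes of the gates, so their levels are no check of the types. Class II genes also reached 6608 and 12914 CPM in macrophages. The dendritic markers themselves came to 657 and 503 CPM in dendritic cells, so this type is less firmly identified. These classes are small, and Apobec3 was lower in the knockout library in all of them. The 13 control T cells held 16 Apobec3 UMIs (188 CPM, 108 to 306) and the 40 knockout T cells held 4 (19.4 CPM, 5.29 to 49.7), a log2 ratio of -3.28 (-5.32 to -1.65). The 32 control macrophages held 6 (148 CPM, 54.5 to 323) and the 128 knockout macrophages held 3 (13.4 CPM, 2.77 to 39.3), a ratio of -3.46 (-6.09 to -1.24). The 23 control dendritic cells held 11 (219 CPM, 109 to 392) and the 30 knockout dendritic cells held 2 (24.5 CPM, 2.97 to 88.6), a ratio of -3.16 (-6.37 to -0.96). Within each library, the intervals of these 3 types overlapped, so no order among them is given.

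Pooled, these cells held 33 Apobec3 UMIs in 68 control cells (188 CPM, 129 to 264) and 9 in 198 knockout cells (17.6 CPM, 8.06 to 33.4), a ratio of -3.41 (-4.66 to -2.32). It was the lowest ratio among 3975 genes with at least 20 UMIs in these cells, whose median was 0.03. Apobec3 was chosen for its low level in the knockout library, so this rank is no independent support. The types make up different parts of the pool in each library. The interferon-induced list was also lower in the pooled cells, with 5759 and 3938 CPM in control and knockout (-0.55, -0.66 to -0.44). By type its ratio was -0.80 (-0.96 to -0.64) in T cells and -0.77 (-0.95 to -0.58) in macrophages. In dendritic cells it was -0.25, with an interval that took in both directions (-0.60 to 0.10). The interferon core gave 2995 and 1367 CPM in macrophages (-1.13, -1.44 to -0.82). Its interval took in both directions in T cells (-0.14, -0.55 to 0.29) and in dendritic cells (-0.46, -1.16 to 0.24). The part of interferon-induced genes in the Apobec3 difference was not tested.

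RNA set free by NK cells reaches other droplets, so the levels were compared with transcripts of NK effector genes. In the pooled cells the summed level of Gzma, Nkg7, Klrd1, Prf1 and Ccl5 was 7.14% (control) and 2.58% (knockout) of the NK level, and some T cells express part of these genes themselves. Apobec3 in the same cells was at 62.4% (42.9 to 87.7) of the NK level in the control and 20.8% (9.50 to 39.5) in the knockout, above the effector genes in both libraries. At 1000 UMIs per cell, an Apobec3 UMI was found in 15.3% of 60 pooled control cells (7.33 to 26.96) and 1.64% of 184 pooled knockout cells (0.341 to 4.70), and in 25.9% and 8.16% of NK cells. The NK receptor transcript Ncr1, which these types should lack and which the gate limits, was found in 2.76% and 1.43% of the pooled cells, against 53.5% and 54.7% of NK cells. Because the gate itself holds Ncr1 down, its share is no independent measure of the background for Apobec3, and how much of the few knockout UMIs is free RNA was not tested. The median depths were 1621 and 1806 UMIs in the pooled cells and 5713 and 3801 in NK cells. Cells that carried the same markers without a limit on NK transcripts gave ratios nearer to that of NK cells, -2.23 for 219 control and 381 knockout T cells, -1.88 for 145 and 330 macrophages and -2.78 for 38 and 46 dendritic cells. Their effector gene levels were 41.9% to 79.0% of the NK level, and whether these transcripts were the cells' own or those of NK cells was not tested.

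The genes whose level followed Apobec3 most closely were sought over 14 points, the 3 maturation tertiles, the interferon-high cells and the 3 other types with few NK transcripts in each library. Among 2564 genes of at least 50 CPM, the highest Pearson correlations of log2(CPM + 10) were those of Fxr1 (0.96), an RNA-binding protein related to FMRP, Hnrnpa2b1 (0.95), a splicing factor, Chordc1 (0.92), an HSP90 co-chaperone, Abcf1 (0.92) and Cggbp1 (0.91), a CGG repeat-binding protein. In NK cells these genes were lower in the knockout too, with log2 ratios of -0.73, -0.90, -1.52, -0.53 and -0.59. The points share the library, its depth and its cells, so these values describe a common difference between the libraries and carry no p-value. The points of T cells, macrophages and dendritic cells rest on 16, 6 and 11 Apobec3 UMIs in the control. In the knockout they rest on 4, 3 and 2. For 36 interferon-induced genes the median correlation with Apobec3 was 0.38 and the highest was that of Xaf1 (0.69), against a median of 0.20 over all genes compared.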

How the data were processed

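Sorted NK cells were profiled in 1 droplet library per genotype, each from a pool of 2 mice. The deposited matrices hold raw UMI counts per gene and barcode, with no normalization. The submitters' processing notes name STAR, Cell Ranger 3.0.0, Seurat and GRCm39, and the file headers give version 3.0.0. Positions come from the GENCODE annotation of GRCm38 and promoters from RefSeq (GRCm38.p6). Apobec3, the gene lists and the gates were chosen with earlier results of these data known.

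A barcode needed 500 or more genes and a mitochondrial share of 10% or less, which kept 10928 control and 10023 knockout cells and left out 857 and 592 barcodes. No doublet caller was run. Cell classes were gated on unthinned UMIs, and no cell fell into more than 1 type. The NK gate took at least 3 UMIs over 8 markers (such as Ncr1, Klrb1c and Eomes), at most 2 each over T, macrophage, B and platelet markers and under 10 of class II genes. T cells needed 3 UMIs over 6 markers (such as Cd3e and Trac), macrophages 5 over 8 (such as C1qa and Vcam1) and dendritic cells 10 over 4 class II genes and 1 over 8 markers (such as Flt3 and Xcr1). Levels are summed unthinned UMIs per 1000000. Shares at one depth are expected shares over all ways of thinning a cell, and maturation and interferon classes used 1 random thinning to 2000 UMIs. Intervals are exact Poisson, exact binomial (Clopper-Pearson, on the expected number of cells for thinned shares) or, for ratios, exact conditional binomial, at 95%, for counting error only. A count of 0 was read against 3 counts over the group. Genes of at least 10 CPM were called measured, and a log2 ratio of 0.32 marked a size and was no test. Genes named were Apobec3, measured deaminase and uracil repair genes, up to 6 members with the largest ratio of each other list, measured neighbours, the 5 genes most like Apobec3, gate markers and Ptger3. Some genes that this rule names are not reported here. Irf1, Samhd1 and Eif2ak2 in the interferon classes, Apobec1, Apobec2 and Apobec4 below the limit, Dnal4, Ung, Xaf1, and the 5 effector genes that trace NK RNA were chosen after values were seen. On counts simulated for knockout over control in NK cells, 100 of 100 genes changed 1.5-fold passed the size of 0.32, as did 0% of 7132 unchanged genes. The simulated counts varied by Poisson error alone, with no difference between pools or preparations, so these shares cover counting error only. In the libraries themselves, 29.3% of measured genes were lower and 14.7% higher by this size. Values were computed in Python 3.11.15 (pandas 2.3.3, scipy 1.17.1, numpy 2.4.6) and plotted with matplotlib 3.10.9.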

Additional observations from a re-analysis of the deposited data

How the results depend on the processing

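The Apobec3 log2 ratio in NK cells stayed between -1.94 and -1.48 in every alternative run: it was -1.76 under median-of-ratios scaling, -1.94 in cells of 3000 to 5000 UMIs, and -1.48 and -1.77 relative to the 300 genes nearest in exon length and in level. The share of NK cells with a UMI follows the depth, at 25.9%, 67.9% and 79.0% in the control and 8.16%, 28.0% and 28.5% in the knockout for 1000 UMIs, 4000 UMIs and no thinning. The pooled T cells, macrophages and dendritic cells gave -2.10 with no limit on NK markers, -4.09 with 0 NK UMIs, -3.34 with marker minimums doubled and -3.48 at 1000 UMIs. Dendritic cells with doubled minimums numbered 6 in the control and 7 in the knockout. They held 1 and 0 Apobec3 UMIs and gave no value. The control ratio of most over least mature cells was -0.31 in quintiles and -0.0036 by Cd27 against Itgam and Klrg1, and that of interferon-high cells 0.14 by the whole list and 0.42 at 4000 UMIs. The cause of these shifts was not tested. At a size of 0.58, which 13.9% of measured genes passed downwards and 4.09% upwards, lower and higher members numbered 14 and 1 for interferon-induced genes, 1 lower for restriction factors, 0 higher for interferon signalling, and 0 and 0 for uracil repair. With genes from 1 CPM on, higher members numbered 7 for interferon-induced genes, 3 for restriction factors, 1 for deaminases and 2 for uracil repair, where 2 were lower. Median-of-ratios scaling made 2 interferon signalling genes higher. Of 74 alternatives in all 47 stayed within counting error or, for counts, within 1.5-fold. Another random thinning, added after the data were seen, gave -0.23 for the control maturation ratio and 0.59 for interferon-high cells, and 4 of the 5 genes most like Apobec3. No paired analysis was possible because each genotype has 1 library, and no replicate could be left out. In the other cell types the values rest on 33 control and 9 knockout Apobec3 UMIs.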
